A study of Mus musculus with 8 samples.

Results

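Preadipocytes lacking Irf3 at day 5 of adipocyte differentiation were compared with wildtype preadipocytes at day 9, 1 bead array for each. The pair was chosen from the readout itself, by the place of the arrays on the main axis of variation computed over all 8 arrays of the series. On that axis, which held 56.2% of the variance, the knockout day 5 array stood at 13.4 and the wildtype day 9 array at 13.9. Genes were then kept where a probe had a detection p-value under 0.05 on at least 1 of the 2 arrays, which left 9395 of the 16593 genes with a probe. By the probe that read each gene, 8340 genes (88.8%) were detected on both arrays, 372 on knockout day 5 only and 683 on wildtype day 9 only. At the edge of that threshold, Slc17a9 was kept with a lower detection p of 0.0489 and Syce1l was left out with 0.0501.

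The series holds wildtype and Irf3-knockout cells of white adipose tissue at days 3, 5, 7 and 9, with 1 array per genotype and day and no replicate of any condition. All cultures grew in the same high-glucose medium with serum, insulin and ascorbate, and none had a further treatment. Strain, sex, the deleted part of Irf3 and any sharing of an animal or culture between days are details the labels do not state. The pair therefore has no test: differences between its arrays are described, on the log2 scale of normalized intensity, as knockout day 5 minus wildtype day 9. At least 2-fold is called apart and under 1.5-fold is called near. Tests were run only on the other 6 arrays, wildtype days 3, 5 and 7 and knockout days 3, 7 and 9. They used 1 limma model with a genotype term and a slope per day, and so did not use the pair difference. All 8 arrays had entered the choice of the pair, however.

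Between 12224 and 13414 probes per array were detected, 12563 on knockout day 5 and 13015 on wildtype day 9, and the mean raw intensities of this pair were 991 and 891. The number of arrays limits the precision. Where a gene had at least 2 probes detected on both arrays (2141 genes), the difference varied from probe to probe with an SD of 0.28. Of 54 such genes that were 2-fold apart by their brightest probe, the next probe had the same sign in 50 (92.6%) and was itself 2-fold apart in 35 (64.8%). Since the arrays read whole cultures, fewer cells of a type and less RNA per cell cannot be told apart.

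The protein made from Irf3 is a transcription factor of innate immunity: once sensors of foreign DNA or RNA switch it on, it turns on type I interferon and many of the genes that interferon also induces. Adipocyte differentiation turns fibroblast-like precursors into lipid-storing cells: the factors encoded by Pparg and Cebpa turn on genes of lipid uptake, synthesis and storage while the cells leave the cell cycle. Cultures from white adipose tissue also carry macrophages, endothelial cells and other cells of the stroma, and the levels of their genes move as the culture ages.

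Irf3 itself was read by 3 probes. The brightest gave 11, 11.21, 11.38 and 11.35 on wildtype days 3, 5, 7 and 9, and 10.75, 10.72, 10.36 and 11.09 on the knockout arrays. In the pair it was 1.54-fold lower on knockout day 5, a difference of -0.63, and the other 2 probes gave -0.47 and -0.79. Over the other 6 arrays the genotype difference of Irf3 was -0.53 ± 0.24 (SE, limma adjusted p = 0.497). A probe outside the deleted part does not check the genotype, and the labels do not state where these probes lie relative to it. Bcl2l12, the neighbour of Irf3 on the chromosome, was detected on wildtype day 9 and not on knockout day 5, at least 1.75-fold lower there. Across those 6 arrays, Bcl2l12 was lower in knockout by -1.87 ± 0.26 (SE, limma adjusted p = 0.018), a call lost without wildtype day 7, knockout day 3 or knockout day 7.

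The genes furthest apart in the pair included many interferon-stimulated genes, so the promoters of 3 of them are shown first, together with 1 promoter of a DNA replication gene, the group that stood slightly higher on knockout day 5. They are the members with the largest difference in their list among those whose window holds the motif. Each window runs from 250 bases before to 50 bases after the start of the gene, written along the gene in RefSeq's GRCm38.p6. Capitals mark GAAANNGAAA, the core of interferon response elements, or its reverse complement, in Isg15 (chr4:156200769-156201068, minus strand), Rsad2 (chr12:26456403-26456702, minus strand) and Ifit3 (chr19:34583279-34583578, plus strand). In Mcm3 (chr1:20820263-20820562, minus strand) they mark TTTGGCGC or TTTCCCGC, letters bound by E2F factors, or their reverse complements. The 3 matches of Isg15 overlap each other, Ifit3 has 2 separate matches, Rsad2 has 1 and Mcm3 has 2.
Isg15: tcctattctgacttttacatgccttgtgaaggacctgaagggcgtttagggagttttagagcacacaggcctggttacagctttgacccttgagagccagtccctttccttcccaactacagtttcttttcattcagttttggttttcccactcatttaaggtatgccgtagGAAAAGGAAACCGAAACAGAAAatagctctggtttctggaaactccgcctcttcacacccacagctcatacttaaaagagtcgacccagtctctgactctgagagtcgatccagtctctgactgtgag
Rsad2: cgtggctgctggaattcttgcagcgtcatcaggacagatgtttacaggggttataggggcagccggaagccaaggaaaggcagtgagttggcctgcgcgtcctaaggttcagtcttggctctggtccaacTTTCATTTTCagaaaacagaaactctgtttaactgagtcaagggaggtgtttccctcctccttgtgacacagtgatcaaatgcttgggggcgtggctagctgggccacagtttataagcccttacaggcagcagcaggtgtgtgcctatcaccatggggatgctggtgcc
Ifit3: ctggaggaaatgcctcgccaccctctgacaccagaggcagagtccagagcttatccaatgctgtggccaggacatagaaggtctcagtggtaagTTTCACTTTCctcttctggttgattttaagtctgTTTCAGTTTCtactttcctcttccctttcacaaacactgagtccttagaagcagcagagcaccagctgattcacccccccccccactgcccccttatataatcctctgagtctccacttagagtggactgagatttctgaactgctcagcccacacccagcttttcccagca
Mcm3: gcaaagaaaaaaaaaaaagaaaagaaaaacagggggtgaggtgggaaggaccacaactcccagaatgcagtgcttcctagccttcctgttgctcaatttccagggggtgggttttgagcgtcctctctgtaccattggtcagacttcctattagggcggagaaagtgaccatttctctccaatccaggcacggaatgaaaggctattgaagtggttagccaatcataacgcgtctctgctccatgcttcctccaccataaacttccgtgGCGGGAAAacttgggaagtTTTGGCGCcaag

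On either strand, GAAANNGAAA was found in 3.99% of all 27025 RefSeq windows and in 3.83% of the 7605 windows of genes kept here. It was found in 34 of the 282 windows of genes at least 2-fold lower on knockout day 5 (12.1%) and in 4 of the 173 windows of genes at least 2-fold higher (2.31%). Among the type I interferon-stimulated genes 15 of 30 windows held it, and among the interferon-gamma and antigen presentation genes 12 of 28. The E2F-type letters were in 1.80% of all windows and 3.16% of the kept ones, in 9 of 32 windows of DNA replication genes and in 3 of 33 of mitosis genes. A match describes letters in these windows and says nothing of binding, and its absence nothing of the factor.

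Most of the transcriptome matched across the 4 days and the genotype that separate the pair. Of the 9395 genes, 7568 (80.6%) were within 1.5-fold, and the median absolute difference was 0.26. Pearson's r across the genes, which are not independent replicates, was 0.972 and Spearman's rho 0.970. Of the 28 pairs that can be formed from 8 arrays, 6 had a higher r and 6 had fewer genes 2-fold apart, so a like place on the main axis did not make this the closest pair. Knockout day 5 had 585 genes 2-fold apart from wildtype day 9, against 480 from wildtype day 7 and 824 from wildtype day 5, comparisons that share the knockout array. Wildtype day 7 and wildtype day 9 had 221 between them.

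**Figure D1:**
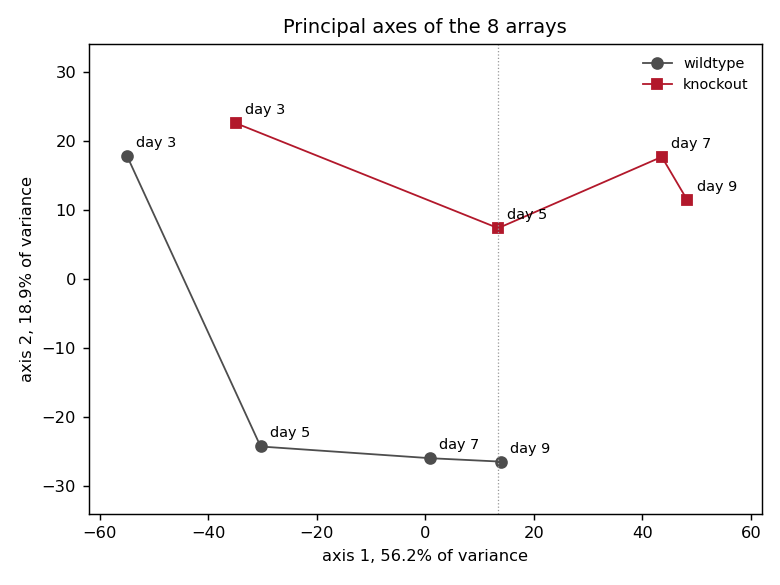
Scores of the 8 arrays on the first principal axes over 9395 genes, axis 1 (56.2% of the variance) against axis 2 (18.9%), lines joining the days of a genotype. Knockout day 5 and wildtype day 9 lie at 13.4 and 13.9 on axis 1, marked by the dotted line, and at 7.34 and -26.5 on axis 2.

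At least 2-fold higher on knockout day 5 were 217 genes (2.31% of those kept), 87 of them detected on that array alone. At least 2-fold lower were 368 genes (3.92%), 157 of them detected on wildtype day 9 alone. At 4-fold the counts were 20 higher and 63 lower, and at 8-fold 2 higher and 20 lower. Without background correction the 2-fold counts were 49 higher and 127 lower, and among genes detected on both arrays 130 and 211.

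**Figure D2:**
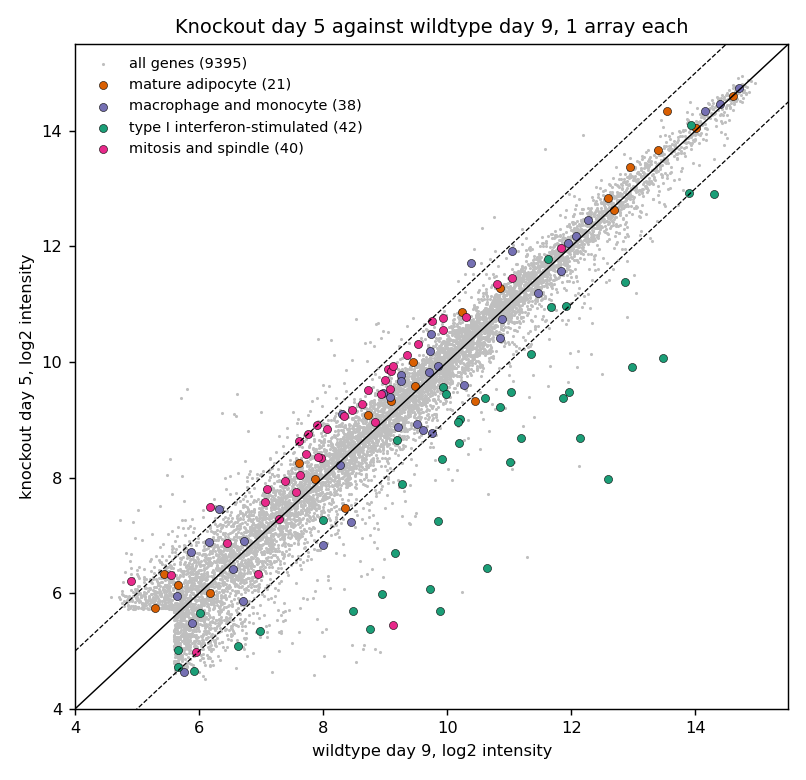
Normalized log2 intensity of 9395 genes on knockout day 5 (vertical) against wildtype day 9 (horizontal), with the members of 4 gene lists coloured, the line of equality solid and the 2-fold limits dashed. Adipocyte and macrophage genes lie along the line, mitosis genes mostly a little above it, and type I interferon-stimulated genes mostly below the lower limit.

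Gene sets picked without either array of the pair show which of its differences went with stage and which with genotype. Stage genes were those at least 2-fold up, or down, from day 3 to day 7 in both genotypes. Genotype genes were those at least 2-fold higher, or lower, in knockout on day 3 and again on day 7. The arrays of the pair entered these sets only through the joint normalization, the detection filter and the choice of each gene's brightest probe. The pair itself, however, was chosen for a like place on the main axis of variation. A small pair difference in genes that move with day may therefore follow in part from that choice. How far it does was not tested.

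Genes that go up with differentiation were matched on balance. The 387 stage genes going up had a median pair difference of 0.03, against 0.03 over all genes, and 250 of them (64.6%) were within 1.5-fold. Against wildtype of its own day 5, the same knockout array gave a median of 1.15 for this set, with 25.8% within 1.5-fold and 217 genes at least 2-fold higher. The match was one of the median: 64.6% near is below the 80.6% of all genes, and 40 of the 387 (10.3%, beside 3.92% of all genes) were at least 2-fold lower on knockout day 5 than on wildtype day 9, with 14 higher.

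Genes that go down with differentiation were not at the level of wildtype day 9. The 228 stage genes going down had a median pair difference of 0.55, 196 of them (86.0%) were above 0, and 31 were at least 2-fold higher on knockout day 5 against 3 lower. Against wildtype day 5 their median was -0.34, with 68.0% within 1.5-fold. By these medians, knockout day 5 lay between wildtype day 5 and wildtype day 9 for this set. It lay at wildtype day 9 for the set going up, a match that the choice of the pair may have favoured.

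The genotype sets behaved unlike each other. The 101 genes higher in knockout on days 3 and 7 had a median of 2.09 against wildtype day 5 and of 0.51 against wildtype day 9, where 52 were within 1.5-fold, 28 at least 2-fold higher and 0 at least 2-fold lower. The 92 genes lower in knockout had a median of -2.02 against wildtype day 5 and of -1.99 against wildtype day 9, where 77 (83.7%) were at least 2-fold lower. The difference between the sets in how far 4 further days of wildtype culture changed them was not tested.

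**Figure D3:**
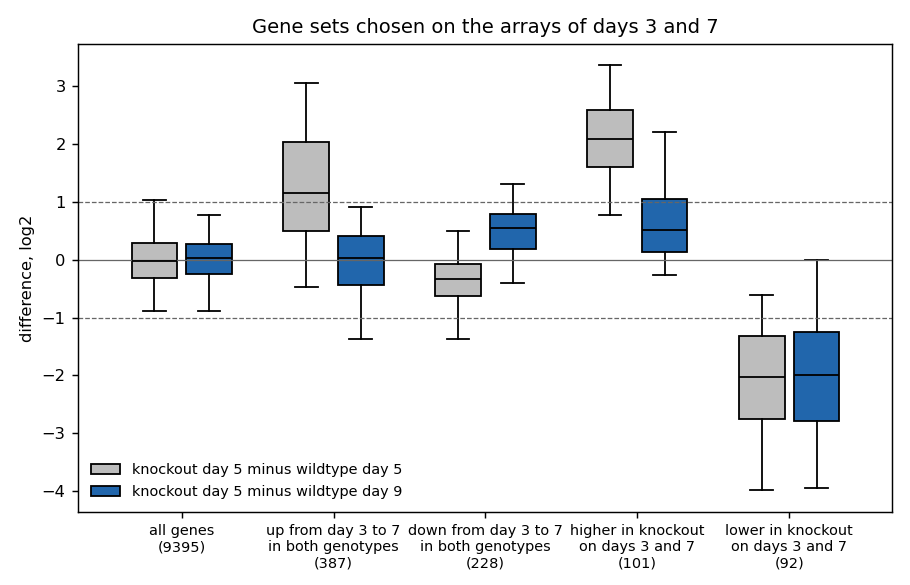
Boxes (quartiles, median line, whiskers from the 5th to the 95th percentile of genes) of the log2 difference of knockout day 5 from wildtype day 5 (grey) and from wildtype day 9 (blue), for all genes and for 4 sets picked on days 3 and 7. Genes going up centre near 0 against wildtype day 9, genes lower in knockout near -2 against either wildtype array, and the dashed lines mark 2-fold.

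Read the other way, the 217 genes 2-fold higher on knockout day 5 held 28 (12.9%) that were 2-fold higher in knockout on days 3 and 7 too, and 31 (14.3%) that went 2-fold down from day 3 to day 7 in both genotypes. The remaining 158 met neither rule. Of all 9395 genes, 101 met the first of these rules and 228 the second. Of the 368 genes 2-fold lower, 74 were genotype-linked, 37 were day-linked (2-fold up from day 3 to day 7), 3 were both and 254 were neither. Of all 9395 genes, 92 were 2-fold lower in knockout on days 3 and 7, and 387 went 2-fold up in both genotypes. On the arrays outside the pair, limma called 68 of 9395 genes higher in knockout (0.724%), 76 lower (0.809%), 445 rising with day (4.74%) and 262 falling with day (2.79%), at an adjusted p under 0.05 over all genes. Of the 217 genes higher in the pair, 19 (8.76%) were called higher in knockout, 36 (16.6%) falling and 10 rising. Of the 368 lower in the pair, 67 (18.2%) were called lower in knockout, 52 (14.1%) rising and 1 falling.

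These calls rest on 3 residual degrees of freedom and on single arrays. Without wildtype day 7 the genotype calls were 1 higher and 7 lower, and without knockout day 3 the calls for day were 0 and 0. Each other array left out moved the genotype calls as well, to between 25 and 158 higher and between 34 and 176 lower. Among genes apart in the pair and called the same way, Bmp4 alone of 19 higher and 6 of 67 lower kept the call under every array left out: Ctsc, Lars2, Nudt6, Plk1, Prkag2 and Psmd8.

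Mature adipocyte genes were, by list mean, slightly past the level of wildtype day 9. Of 21 kept mature adipocyte genes 15 (71.4%, beside 80.6% of all genes) were within 1.5-fold, 0 were 2-fold higher and 1 was 2-fold lower, with a median difference of 0.28. The mean of the list was 7.14, 8.15, 9.91 and 9.93 on wildtype days 3 to 9 and 7.79, 10.14, 11.15 and 10.75 on the knockout arrays, so that knockout day 5 lay just above every wildtype array and below the later knockout arrays. By the 6-array model, 14 of the 21 were called rising (beside 4.74% of all genes) and none was called for genotype by limma. With 1 array left out 0 to 15 were called rising (0 without knockout day 3). Other lists of fat cell genes varied more gene by gene. Of 9 brown and beige adipocyte genes 3 (33.3%) were within 1.5-fold and 0 were 2-fold apart, with a median of 0.40. Of 17 adipokine and secreted factor genes 3 were 2-fold higher and 2 lower, with a median of 0.04.

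Adipoq encodes adiponectin, a hormone secreted by fat cells. It was 6.31, 11.63, 13.85 and 14.01 on wildtype days 3 to 9 and 9.26, 14.05, 14.39 and 14.41 on the knockout arrays, so the pair, near the top of the intensity scale, differed by 0.04. Lep, the gene of leptin, was 4.73, 6.44, 8.74 and 9.10 in wildtype and 5.71, 9.33, 9.89 and 10.11 in knockout, a pair difference of 0.24. Both genes stood higher on knockout day 5 than on any wildtype array and lower than on the later knockout arrays. They were called rising over the other 6 arrays, Adipoq by 1.21 ± 0.22 per day (SE, limma adjusted p = 0.0218) and Lep by 0.85 ± 0.09 (limma adjusted p = 0.00779).

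Enzymes of triglyceride handling gave a like picture. Agpat2, an acyltransferase of triglyceride synthesis, differed by -0.07 (12.62 on knockout day 5, 12.70 on wildtype day 9). Lipe, hormone-sensitive lipase, differed by 0.10 (7.97 and 7.87). The members furthest behind were Cidec, a fusion protein of lipid droplets, and Slc2a4, the insulin-responsive glucose transporter. Cidec stood at 9.33 against 10.44, 2.16-fold lower, and reached 12.07 and 12.06 on knockout days 7 and 9. Slc2a4 stood at 7.47 against 8.35 and reached 10.39 and 9.77. Fabp4, the fatty acid-binding protein of fat cells, was detected on 3 of 8 arrays only, at least 1.11-fold higher on knockout day 5, and says little here.

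Of 20 adipogenic transcription factors 14 were within 1.5-fold, a smaller share than the 80.6% of all genes, and 0 were 2-fold apart in either direction, with a median of 0.08. Pparg, the master regulator of fat cell formation, was 9.63, 10.86, 11.90 and 12.08 on the wildtype arrays and 10.56, 12.71, 13.05 and 12.61 on the knockout arrays. Cebpa, which acts with it, was 7.65, 7.53, 8.34 and 8.59 in wildtype and 7.90, 9.36, 10.32 and 9.06 in knockout. Both were above every wildtype array on knockout day 5, by 0.63 and 0.77 over wildtype day 9, and the 3 probes of Pparg gave 0.63, 0.62 and 0.82. Klf15, a factor of mature fat cells, was on the other side at -0.81 (6.15 and 6.96).

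Lipid synthesis, oxidation and respiration had 1 gene 2-fold apart among them, with all their kept genes detected on both arrays. Of all genes detected on both arrays 85.7% were within 1.5-fold. In fatty acid and triglyceride synthesis 19 of 21 genes (90.5%) were within 1.5-fold with a median of -0.02. The gene apart was Gpam, the acyltransferase of the first step of glycerolipid synthesis, 8.72 against 7.29 and 2.71-fold higher on knockout day 5. Thrsp, a lipogenic nuclear protein, was the lowest of the list at -0.89 (10.97 and 11.86). In fatty acid oxidation 19 of 21 and in the respiratory chain and TCA cycle 46 of 48 (95.8%) were within 1.5-fold. Their medians were 0.28 and 0.17, with 0 genes apart. These small differences were mostly above 0, in 20 of 21 and 43 of 48 genes (beside 52.7% of all genes). All 38 cytosolic ribosomal protein genes were within 1.5-fold, with a median of 0.04.

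**Figure D4:**
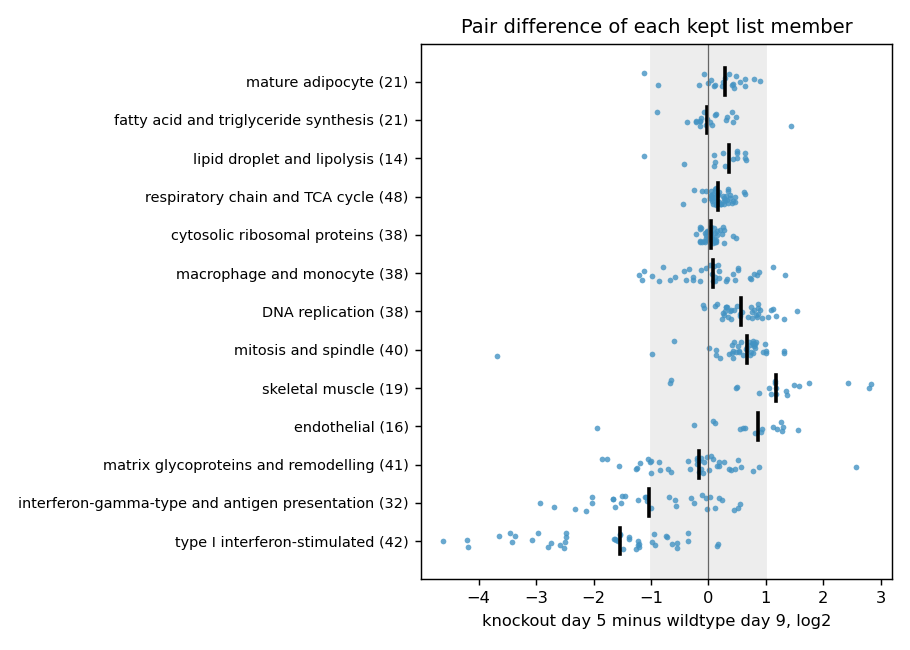
Difference of each kept gene of 13 lists, knockout day 5 minus wildtype day 9 in log2, 1 point per gene, with the list median as a bar, the number of genes in brackets and the range under 2-fold shaded. Ribosomal and respiratory genes crowd around 0, while the interferon lists have medians of -1.55 and -1.03 and the skeletal muscle list one of 1.19.

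Macrophage genes matched in their sum and varied gene by gene. Of 38 kept genes 36 were detected on both arrays and 23 (60.5%, beside 80.6% of all genes) were within 1.5-fold. At 2-fold, 2 were higher and 3 lower (beside 2.31% and 3.92% of all genes), and the median was 0.09. The list mean was 6.92, 7.58, 8.71 and 9.44 on wildtype days 3 to 9 and 8.03, 9.45, 10.58 and 11.14 on the knockout arrays, so knockout day 5 and wildtype day 9 had nearly the same level between lower earlier and higher later knockout arrays. Against wildtype of its own day 5 the list median was 2.11. Over the other 6 arrays limma called 16 of the 38 higher in knockout and 29 rising with day. Of all genes 0.724% and 4.74% were so called. Without wildtype day 7 none of the 38 was called for genotype, and without knockout day 3 none for day.

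Adgre1, the macrophage marker F4/80, was 7.00, 7.65, 9.31 and 10.88 on wildtype days 3 to 9 and 9.18, 10.74, 12.36 and 13.11 in knockout. Tyrobp, the adaptor of many myeloid receptors, was 6.44, 7.23, 8.69 and 9.85 in wildtype and 8.02, 9.92, 10.89 and 11.62 in knockout. Their pair differences were -0.14 and 0.07, while each knockout array was higher than the wildtype array of its day. Outside the pair, Adgre1 was higher in knockout by 2.70 ± 0.27 (SE, limma adjusted p = 0.00696; lost without wildtype day 7) and Tyrobp by 1.92 ± 0.24 (limma adjusted p = 0.0127; lost without wildtype day 7 or knockout day 3). Lyz2, lysozyme of macrophages, was near the top of the scale on both arrays, 14.73 and 14.70.

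The macrophage genes that stayed apart went both ways. Aif1, the cytoskeletal protein Iba1, was 7.24 on knockout day 5 and 8.45 on wildtype day 9, and its other probe was lower too (-1.61). Marco, a scavenger receptor, was 6.83 and 7.99. Both were 2-fold lower on knockout day 5 and higher on the later knockout arrays than on wildtype day 9, Aif1 at 8.83 and 9.68 and Marco at 9.38 and 9.55. Mmp12, macrophage elastase, was 11.72 against 10.39, 2.52-fold higher, and Lilra6, a leukocyte immunoglobulin-like receptor, 7.45 against 6.32. Apoc1, an apolipoprotein made by macrophages and liver, was not in this list but among the adipokine and secreted factor genes. It was 13.68 against 11.58 and 4.29-fold higher, with 13.07 already on knockout day 3 against 7.12 on wildtype day 3. Its genotype difference over the other 6 arrays was 3.45 ± 0.76 and did not pass (SE, limma adjusted p = 0.104).

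Interferon-stimulated genes stayed apart as a group. Of 42 kept type I interferon-stimulated genes 30 (beside 3.92% of all genes) were at least 2-fold lower on knockout day 5, 0 were 2-fold higher, 6 were within 1.5-fold and the median was -1.55, with 33 of the 42 detected on both arrays. The list was chosen with earlier results of these data known, so its direction is a description. Its mean was 9.48, 9.96, 10.20 and 10.25 on wildtype days 3 to 9 and 8.46, 8.40, 8.41 and 8.57 on the knockout arrays. Knockout day 5 lay below wildtype day 3, off the wildtype course. In the 6-array model, 19 of the 42 were called lower in knockout (beside 0.809% of all genes) and 0 higher by limma. With 1 array left out 0 to 23 were called lower (0 without wildtype day 7).

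Isg15, the ubiquitin-like modifier whose promoter is printed above, was 10.64, 12.17, 12.65 and 12.59 on wildtype days 3 to 9 and 8.80, 7.97, 7.96 and 7.83 on the knockout arrays. Rsad2, the antiviral enzyme viperin, was 8.28, 10.40, 10.50 and 9.72 in wildtype and 6.12, 6.07, 6.56 and 6.96 in knockout. Ifit3, an RNA-binding antiviral protein, was 11.05, 12.92, 13.45 and 13.48 in wildtype and 9.50, 10.06, 9.68 and 9.78 in knockout. In none of these 3 genes did the genotypes overlap. Here and below this describes named genes only, since the share of all genes without overlap was not counted. The 3 probes of Ifit3 differed in the pair by -3.42 to -3.83. On knockout day 5 Isg15, Rsad2 and Ifit3 were 24.7-fold, 12.6-fold and 10.7-fold lower than on wildtype day 9. Across those 6 arrays, limma called each of them lower in knockout, Isg15 by -3.67 ± 0.55 (SE, adjusted p = 0.0247), Rsad2 by -3.53 ± 0.45 (adjusted p = 0.0134) and Ifit3 by -3.11 ± 0.48 (adjusted p = 0.0281). All 3 calls were lost without wildtype day 7 or knockout day 7, and those of Isg15 and Ifit3 also without wildtype day 5 or knockout day 9.

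Other members spanned the antiviral response. Oas2, an enzyme that senses double-stranded RNA, was 6.44 on knockout day 5 and 10.64 on wildtype day 9, 18.4-fold lower. Usp18, the protease that removes Isg15 from proteins, was 8.68 and 12.13, 10.9-fold lower, and its 3 probes differed by -3.45 to -3.71. Oasl2, an Oas-like protein, was 9.91 and 12.98, and Cmpk2, a mitochondrial nucleotide kinase, 5.98 and 8.94. Irf7, the factor that amplifies the interferon response, was detected on wildtype day 9 (9.89) and not on knockout day 5, at least 17.9-fold lower there. Mx2, an antiviral GTPase, was likewise detected on wildtype day 9 only, at least 8.14-fold lower on knockout day 5. Of the factors that carry the interferon signal, Irf9 was 9.49 against 11.03, 2.92-fold lower. Ifi205 and Ifi27 were the 2 of 42 above 0, by 0.15 and 0.17.

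Chemokine and antigen presentation genes that respond to interferon-gamma were lower in part. Of 32 kept genes 16 (beside 3.92% of all genes) were at least 2-fold lower on knockout day 5 and 0 were 2-fold higher. Within 1.5-fold were 14 (43.8%, beside 80.6% of all genes), and the median was -1.03, with 29 detected on both arrays. Cxcl9, a chemokine for T cells, was 7.72 against 10.65 and 7.63-fold lower. Gbp3, a guanylate-binding protein, was 9.80 against 12.49, and H2-T23, a class Ib histocompatibility gene, 10.77 against 12.90, 4.37-fold lower, with a second probe at -2.11. Over the other 6 arrays limma called 4 of the 32 lower and 2 higher in knockout (beside 0.809% and 0.724% of all genes). The lower calls were 0 without wildtype day 5, wildtype day 7, knockout day 7 or knockout day 9, 2 without knockout day 3 and 7 without wildtype day 3. The 2 higher, named after their values were seen, were the class II genes Cd74 and H2-Ab1. In the pair Cd74 differed by 0.19 and H2-Ab1 by 0.12, and both calls were lost when any array other than wildtype day 3 was left out. No lymphocyte gene of the 14 on the array was kept, so markers of those cells were not detected on either array of the pair.

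Of 21 kept genes for the sensors and adaptors that act above interferon genes 13 (61.9%, beside 80.6% of all genes) were within 1.5-fold, 0 were 2-fold higher and 4 were 2-fold lower (beside 3.92% of all genes), with a median of -0.12. The 4 were Irf7 and Irf9, already described, Ddx58, the RNA helicase RIG-I, at 7.89 against 9.28, and Tlr3, a receptor of double-stranded RNA, detected on wildtype day 9 only and at least 1.39-fold lower on knockout day 5. Each of the 4 except Tlr3 also belongs to the interferon-stimulated list. Inflammatory genes of the NF-kB type had a median of -0.03, with 4 of 30 2-fold higher and 3 lower (beside 2.31% and 3.92% of all genes). Ccl6 (10.73 and 8.53), Ccl3 (10.33 and 8.67) and Ccl2 (11.40 and 10.17), chemokines of myeloid cells, were higher on knockout day 5. Ccl5, a chemokine that interferon also raises, was detected on wildtype day 9 only and was at least 7.54-fold lower on knockout day 5.

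Genes of cell division were mostly higher on knockout day 5 than on wildtype day 9. Their DNA replication mean was close to that of wildtype day 5, and their mitosis mean lay between wildtype days 5 and 7. Of 40 kept mitosis and spindle genes 37 were above 0, with a median of 0.67, 4 at least 2-fold higher on knockout day 5 and 1 lower. Of 38 kept DNA replication genes 36 were above 0, with a median of 0.57, 6 at least 2-fold higher and 0 lower. Of all genes 52.7% were above 0, 2.31% were at least 2-fold higher and 3.92% lower. The mitosis mean was 10.24, 9.11, 8.48 and 8.34 on wildtype days 3 to 9 and 9.98, 8.81, 8.52 and 8.57 on the knockout arrays, and linear interpolation put knockout day 5 at day 5.94 of the wildtype course. For DNA replication the means were 10.10, 9.29, 8.88 and 8.68 in wildtype and 9.86, 9.30, 9.05 and 8.95 in knockout, which put knockout day 5 at day 4.97. By list mean, the same array lay beyond wildtype day 9 for adipocyte and lipid droplet genes. For lipid synthesis genes the mean was 11.02 against 10.95 on wildtype day 9, while the median difference was -0.02. By the 6-array model, 23 mitosis and 13 DNA replication genes were called falling with day by limma (beside 2.79% of all genes). With 1 array left out the counts were 0 to 29 and 0 to 10. Both were 0 without knockout day 3, and that of DNA replication was 0 also without wildtype day 7. No replication gene was called for genotype.

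**Figure D5:**
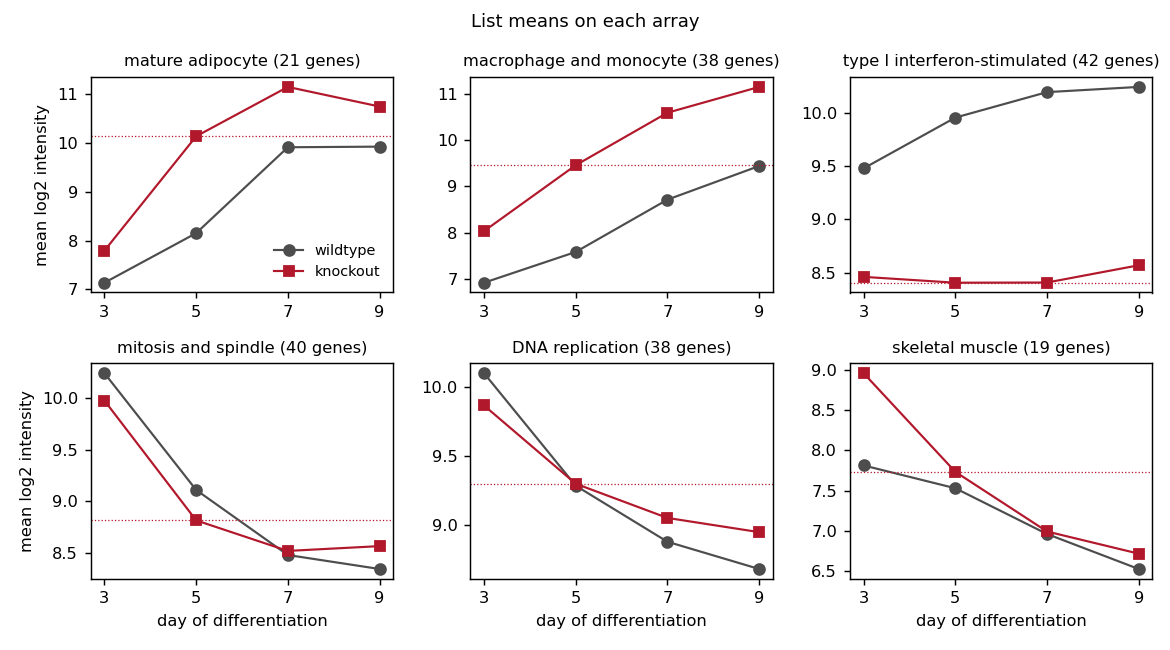
Mean log2 intensity of 6 gene lists on each of the 8 arrays against day of differentiation, wildtype in grey circles and knockout in red squares, with the dotted line at the level of knockout day 5. That level meets the wildtype course at day 5.94 for mitosis genes, at day 4.97 for DNA replication genes and at day 3.56 for skeletal muscle genes. It is just above that course for adipocyte and macrophage genes, and does not meet it for type I interferon-stimulated genes.

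Ccne1, cyclin E1 of the entry into S phase, was 8.07, 8.15, 7.26 and 6.74 on wildtype days 3 to 9 and 8.11, 8.29, 7.30 and 7.60 on the knockout arrays, 2.92-fold higher on knockout day 5 than on wildtype day 9. Mcm3, a subunit of the replicative helicase whose promoter is printed above, was 8.93, 7.28, 7.42 and 6.86 in wildtype and 8.66, 7.99, 8.04 and 6.97 in knockout, 2.19-fold higher. Top2a, the topoisomerase of dividing cells, was 11.18, 10.15, 9.40 and 9.04 in wildtype and 11.08, 9.88, 9.80 and 9.61 in knockout, a difference of 0.84. In these genes the genotypes overlapped, and knockout day 5 was closer to wildtype day 5 than to wildtype day 9. Cdc45, a partner of that helicase, was 8.32 against 7.14, and Bub1b, a spindle checkpoint kinase, 7.50 against 6.17. For Tk1, thymidine kinase, the probes disagreed: the brightest gave 1.32 and the other -0.20. Kif11, a spindle motor, and E2f1, a factor of the entry into S phase, were at 0.00 and -0.07.

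Plk1, a kinase of mitotic entry and the only mitosis gene 2-fold lower on knockout day 5, went against the rest of its list. It was 11.18, 10.27, 9.67 and 9.12 on wildtype days 3 to 9 and 5.79, 5.45, 5.39 and 4.95 on the knockout arrays, where it was detected on day 3 only. On knockout day 5 it was at least 10.5-fold lower than on wildtype day 9. With the pair set aside, it was lower in knockout by -4.72 ± 0.26 (SE, limma adjusted p = 0.00079), a call kept with every array left out. Plk1 was read by 1 kept probe, so no second probe bears on it, while 37 of the other 39 mitosis genes were above 0 in the pair.

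Markers of other cells of the culture differed in the pair, and their part in the results above was not tested. Skeletal muscle genes were higher on knockout day 5 in 17 of 19 kept genes, 14 of them at least 2-fold (beside 2.31% of all genes), with a median of 1.19 (0.56 without background correction). Only 10 of the 19 were detected on both arrays, and a gene kept through the array where it is high had to differ, so these counts are a description. Mylpf, a light chain of fast muscle myosin, was 9.38, 8.50, 7.94 and 6.62 on wildtype days 3 to 9 and 10.82, 9.45, 7.56 and 7.27 in knockout, 7.13-fold higher in the pair. Tnnc2, fast troponin C, and Myh8, perinatal myosin heavy chain, were detected on knockout day 5 and not on wildtype day 9, at least 6.65-fold and 3.59-fold higher. The list mean was 7.81, 7.53, 6.96 and 6.53 in wildtype and 8.96, 7.73, 6.99 and 6.72 in knockout, so that the genotypes lay closest to each other on day 7. Outside the pair, 10 of the 19 genes were called falling with day by limma (beside 2.79% of all genes) and none for genotype. With 1 array left out 0 to 9 were called falling (0 without knockout day 3). Des, desmin, differed by -0.66.

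Endothelial genes were higher on knockout day 5 in 14 of 16 kept genes, with a median of 0.86. At least 2-fold higher on that array were 6 of the 16 (beside 2.31% of all genes). Against wildtype day 5 the same array had a median of -0.62. Plvap, a protein of endothelial diaphragms, was 10.34, 10.59, 9.94 and 8.46 on wildtype days 3 to 9 and 10.02, 10.03, 9.09 and 8.89 in knockout. Sox18, an endothelial transcription factor, was 8.45, 9.33, 8.69 and 7.41 in wildtype and 8.0, 8.70, 8.54 and 7.85 in knockout. In both genes the wildtype day 9 array was the lowest of the 8. Flt1, a receptor of VEGF, went the other way, 9.39 on knockout day 5 against 11.32 on wildtype day 9, 3.81-fold lower. Mesothelial and epithelial genes had a median of 0.31 over 8 genes, at day 7.40 of the wildtype course, with the keratin Krt18 at 6.87 against 6.10 and the tight junction gene Cldn4 at 7.40 against 6.66.

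Matrix genes were lower in part. Of 41 matrix glycoprotein and remodelling genes 10 (beside 3.92% of all genes) were at least 2-fold lower on knockout day 5 and 1 higher. The median was -0.16, and 24 (58.5%, beside 80.6% of all genes) were within 1.5-fold. Mmp9, a gelatinase, was 7.11 against 8.88, and Fmod, the small proteoglycan fibromodulin, 9.01 against 10.57. Mmp10, stromelysin 2, was the gene higher, detected on knockout day 5 only and at least 5.51-fold higher. Of 20 collagens 17 (85.0%, beside 80.6% of all genes) were within 1.5-fold and 2 were above 0, with a median of -0.24. Of 14 smooth muscle and myofibroblast genes 12 were below 0, with a median of -0.52. The preadipocyte and progenitor list had a median of -0.22 over 23 of 26 genes on the array, and its Dlk1, a protein of uncommitted precursors, was 6.92 against 7.14. Bmp4, a growth factor that commits precursors, was detected on all 4 knockout arrays (7.82, 7.03, 7.88 and 7.55) and on no wildtype array, at least 2.70-fold higher in the pair. Its genotype difference over the other 6 arrays was 2.60 ± 0.20 (SE, limma adjusted p = 0.00368).

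Several of the genes furthest apart belonged to none of these programmes and kept 1 level in each genotype. Psmd8, a subunit of the proteasome's regulatory particle, was 12.15, 12.41, 12.18 and 12.12 on wildtype days 3 to 9 and 8.11, 8.20, 7.75 and 7.77 on the knockout arrays. Paip1, a partner of poly(A)-binding protein, was 8.35, 8.19, 8.08 and 8.12 in wildtype and 10.34, 10.38, 10.28 and 10.24 in knockout. Thus the pair was 15.2-fold lower for Psmd8 and 4.77-fold higher for Paip1, and in neither gene did the genotypes overlap. Over the other 6 arrays limma gave -4.31 ± 0.20 for Psmd8 (SE, adjusted p = 0.000687) and 2.13 ± 0.18 for Paip1 (adjusted p = 0.00449; lost without wildtype day 7).

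Other genes were detected mostly or only in 1 genotype. Lars2, the mitochondrial leucyl-tRNA synthetase, was 9.22, 8.63, 8.81 and 8.92 in wildtype, not detected on any knockout array, and at least 9.16-fold lower on knockout day 5 than on wildtype day 9. Prkag2, a subunit of AMP-activated kinase, was 8.79, 8.70, 8.46 and 8.46 in wildtype, not detected in knockout, and at least 6.63-fold lower. Zfp985, a zinc finger gene, was 6.88, 7.27, 7.24 and 7.54 in knockout, not detected in wildtype, and at least 3.20-fold higher. Fv1, a retrovirus restriction gene of mice, was detected on all 4 knockout arrays and 1 wildtype array, at least 4.36-fold higher on knockout day 5 by the brightest of 3 probes, none of them above background on wildtype day 9. Nudt6, a nudix hydrolase, was detected on all 4 wildtype arrays and on knockout days 7 and 9, and not on knockout day 5, at least 8.67-fold lower there than on wildtype day 9. The limma calls of Lars2, Prkag2 and Nudt6 over the other 6 arrays had adjusted p = 0.00111, 0.00079 and 0.00079, and those of Zfp985 and Fv1 had adjusted p = 0.00449 and were lost without wildtype day 7.

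Ctsc, cathepsin C, a lysosomal protease that activates granule enzymes, was the lowest of all genes detected on both arrays. It was 9.83, 10.55, 10.87 and 11.29 on wildtype days 3 to 9 and 5.48, 6.63, 7.47 and 8.51 on the knockout arrays, 25.3-fold lower in the pair by its brightest probe. The other 2 probes of Ctsc were not above background on knockout day 5 and gave at least 13.6-fold and 17.8-fold lower. It was lower in knockout by -3.83 ± 0.26 (SE, limma adjusted p = 0.0018) and rose by 0.43 ± 0.06 per day (limma adjusted p = 0.0114) over the other 6 arrays. Of the 29 kept lysosome genes 26 were within 1.5-fold, with a median of -0.12, and Ctsc was 1 of 2 that were 2-fold lower.

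Abhd1, an alpha/beta hydrolase, was among the highest, 5.66, 5.96, 6.09 and 5.71 in wildtype and 8.55, 9.37, 10.51 and 10.14 in knockout, 12.6-fold higher in the pair by its brightest probe. The other 2 probes of Abhd1 were not above background on wildtype day 9 and gave at least 8.31-fold and 9.02-fold higher. Rnase1, a secreted ribonuclease of endothelial and other cells, was the highest, 4.86, 6.53, 6.08 and 5.80 in wildtype and 7.95, 9.54, 8.34 and 7.60 in knockout, 13.4-fold higher, with no overlap between genotypes. Without background correction its difference was 2.17 in place of 3.74, and the deposited processed matrix holds it at 20 on all 8 arrays. Its genotype difference over the other 6 arrays was 2.05 ± 0.45 and did not pass (SE, limma adjusted p = 0.101), while that of Abhd1 was 3.51 ± 0.32 (limma adjusted p = 0.00498; lost without wildtype day 7). Atp10d, a lipid flippase, was 9.13 against 7.00, and Thg1l, a tRNA-modifying enzyme, 9.12 against 6.37, each called higher over the other 6 arrays (limma adjusted p = 0.00803 and 0.0115). Both calls were lost without wildtype day 7, and that of Thg1l also without knockout day 3.

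Some genes at the high end had their knockout peak on day 5. Lypd1, a GPI-anchored protein, was 6.25, 8.63, 7.51 and 6.57 in wildtype and 7.65, 9.10, 7.40 and 6.81 in knockout. Cited4, a transcriptional co-activator, was 6.14, 8.0, 8.90 and 7.91 in wildtype and 6.39, 10.40, 9.46 and 7.68 in knockout. Clca2, a regulator of chloride transport, was 6.72, 8.77, 7.37 and 5.73 in wildtype and 7.47, 8.03, 6.88 and 6.12 in knockout. In all 3 the knockout course had its highest value on day 5, the genotypes overlapped, and the pair stood 5.79-fold, 5.60-fold and 4.93-fold apart. Their limma adjusted p for genotype over the other 6 arrays was 0.776 to 0.964. Those arrays hold wildtype day 5 and not knockout day 5, so this p cannot speak to a genotype difference on day 5. At the low end, Mgarp and Rnd3 were lower in knockout on all 4 days with no overlap between genotypes. Mgarp, a mitochondrial protein, was 8.46, 10.00, 9.55 and 10.24 in wildtype and 6.36, 6.01, 5.77 and 8.17 in knockout, 18.8-fold lower in the pair without passing the test (limma adjusted p = 0.0638). Rnd3, a small GTPase of the cytoskeleton, was 8.15 against 11.04 and was called lower in knockout (limma adjusted p = 0.00696; lost without wildtype day 7 or knockout day 3).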

How the data were processed

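RNA of wildtype and Irf3-knockout preadipocytes was read on Illumina bead arrays, 1 per genotype and day. The authors deposited, per the file headers, a table that is not normalized, with a linear intensity per probe and a detection p-value (p_value) beside it. The deposited matrix of processed values is a linear intensity of unstated normalization, and served as an alternative. Scanner software is not stated in the labels.

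Raw intensities of the 8 arrays were background-corrected by normexp with the detection p-values, given an offset of 16, quantile-normalized and put on a log2 scale with neqc of limma 3.58.1 in R 4.3.3. Tables were made with Python 3.11.15 and pandas 2.3.3. Of 25697 probes 23978 had 1 gene symbol and 1719 none, and 23962 were matched by gene identifier to GRCm38.p6 names. Of all 25697 probes, 13607 were kept for the pair, 12836 of them with a gene name. A gene was read by its brightest kept probe, by the mean over all 8 arrays. A gene detected on 1 array only has a bound, the bright value against the higher of the dim value and the lowest detected signal of the dim array.

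The model on the 6 arrays outside the pair was fitted with lmFit and eBayes (two-sided, Benjamini-Hochberg over 9395 genes). It was also run on simulated data with genotype shifts and no day effect, which cannot check it for genes that move with day. The spread around the model is between arrays, which may be technical. Named genes were a fixed set of 15 markers, of which Mki67 and Ccnb1 are not analysed here, the 12 highest and 12 lowest, the 6 and 6 largest bounds, up to 4 largest and 4 smallest differences of each list, and the 6 and 6 smallest p among genes apart and called the same way. The 35 lists, the pair and the rules were chosen with earlier results of these data known. Alternatives were no background correction, median scaling, an offset of 50, the deposited matrix, the mean of all probes, stricter filters, no filter, a trended and robust prior, day as a factor, and each of the 6 arrays left out. Leaving out the genes that the deposited matrix holds at 1 value was added after the data were seen.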

Additional observations from a re-analysis of the deposited data

How the results depend on the processing

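With 1 array per condition the pair differences have no replicate check, and dim genes carry many of them. Without background correction the 2-fold counts were 49 higher and 127 lower, 19 genes were day-linked and 55 genotype-linked, 93.9% of genes were within 1.5-fold, the skeletal muscle median was 0.56 and the endothelial median 0.54. An offset of 50 gave 96 higher, 208 lower, 42 day-linked, 88.0% within 1.5-fold and a skeletal muscle median of 0.87. Genes detected on both arrays gave 130 higher, 211 lower and 85.7% within 1.5-fold. The share within 1.5-fold was 79.5% with median scaling, 79.7% in the deposited processed matrix, 82.1% at a detection p under 0.01 and 87.8% without a filter, where Pearson's r was 0.986 and the skeletal muscle median 0.88. Over these settings the median of the type I interferon-stimulated list stayed between -1.59 and -1.29 and that of genes going up with stage between -0.003 and 0.12, so its sign was not settled. Of 60 genes named in the text that were 2-fold apart, 45 stayed so in the same direction without background correction, 55 with an offset of 50 and 55 in the deposited matrix, and none turned.

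The deposited matrix has a lowest value of 20 and holds 417 kept genes at it on all 8 arrays, among them Aif1, Cidec, Lep, Lilra6, Rnase1, Slc2a4, Thrsp and Zfp985. With such genes in the fit, limma called 2 genes higher and 6 lower in knockout, 0 rising and 0 falling with day, with 966 genes for genotype and 2250 for day at an unadjusted p under 0.05; 1 gene higher and 5 lower in the pair were called the same way. With the 443 genes constant on the 6 arrays left out, an alternative added after the data were seen, it called 50 higher, 56 lower, 328 rising and 112 falling. No filter gave 38 higher, 270 rising and 153 falling, and a trended and robust prior gave 440 falling. Genes higher in the pair and called higher numbered 12 without background correction and 12 when detected on both arrays. Single arrays moved the calls most, and the cause was not tested: with 1 array left out in turn they ranged from 1 to 158 higher, 7 to 176 lower, 0 to 400 rising and 0 to 203 falling, and calls in the direction of the pair from 1 to 27 higher and 7 to 103 lower. The counts of genes called the same way in the pair and the model were added as results after the data were seen. With day as a factor, which leaves 1 residual degree of freedom, limma called 52 higher and 55 lower, of which 14 and 53 went with the pair. Among the 6 arrays only days 3 and 7 hold both genotypes, so that model compares the genotypes on those days alone. The genotype-linked genes were picked on the same arrays, so these counts are not a separate check of them.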
